A study of Mus musculus with 2 samples.

Results

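The 10 genes described here, Crx, Nrl, Nr2e3, Otx2, Thrb, Rxrg, Samd7, Neurod1, Rorb and Mef2d, are regulators of gene expression in photoreceptors, the light-sensing cells of the retina. They were taken by symbol from the gene list of the count matrices, where all 10 were found among 32285 genes. Their levels were read in rods, cones, bipolar cells and the other cell classes of the mouse retina, and between a diabetic and a wild type library.

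The homeodomain factors Otx2 and Crx act at the top of this network: Otx2 is needed for photoreceptor and bipolar fate, and Crx activates most photoreceptor genes. Nrl and its target Nr2e3 direct precursors to the rod fate and hold cone genes silent in rods, and Samd7 is a Polycomb-associated protein that keeps non-rod genes silent there. Thrb, the thyroid hormone receptor beta gene, and Rxrg, a retinoid X receptor gene, act in cones, where they shape the choice between short-wavelength (S) and medium-wavelength (M) opsin. Neurod1 is a basic helix-loop-helix factor of photoreceptors, Rorb is an orphan nuclear receptor used by several retinal cell types, and Mef2d cooperates with Crx at photoreceptor enhancers.

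Retinas of both eyes were dissociated into single cells from untreated mice of the C57BLKS strain at 13 weeks of age. The wild type mice carried 2 intact copies of the leptin receptor gene (Leprwt/wt), and the diabetic mice carried 2 copies of its db mutation (Leprdb/db), which causes obesity and diabetes throughout the body. There were 2 mice of each genotype and 1 library per genotype, and no label ties a cell to a mouse. With 1 library per genotype there are no replicates, so no difference between genotypes was tested, and genotype cannot be told apart from library. Each interval printed is a 95% one and covers the counting of UMIs alone. About 6000 cells were loaded per library and 3000 were aimed for, and the matrices hold 10308 wild type and 11083 db/db barcodes, of which 26 occur in both. Both numbers exceed the cells loaded, so not every barcode can stand for 1 loaded cell. The word cell below means a kept barcode.

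After filters on genes and mitochondrial share, 10230 wild type and 10963 db/db cells were kept, with medians of 2314 and 2051 unique molecular identifiers (UMIs, counted RNA molecules) per cell. Cells were clustered without the 10 genes and named from marker genes, hence names such as rod-like. The rod-like class held 7270 wild type and 8649 db/db cells, the cone-like class 527 and 472, the bipolar-like class 714 and 505, the Muller glia-like class 188 and 92, the microglia- or macrophage-like class 63 and 60, and the amacrine-like class 112 and 28. Cells like retinal pigment epithelium (45 and 16) and erythroid cells (25 and 43) were few. All 8 rod, 8 cone and 13 bipolar markers were highest in the class named for them in both libraries. A further 1286 and 1098 cells, in clusters whose rod marker level was at least 0.6 of that of rods, were left out of all classes. Among them were a cluster of 408 cells with cone markers up, at 0.81 of the rod level, and one of 667 with Muller glia markers up, at 0.92. The cone-like and Muller glia-like classes thus lack these cells. A set of 5 rod genes, among them Gnat1, Pde6a, Pde6b and Cnga1, was present in every class. The median over these 5 of the level there, as a share of the level in rods, was 28.2% (25.5% to 33.7% over the 4 named) in wild type and 24.8% (22.5% to 27.4%) in db/db cone-like cells. In bipolar-like cells it was 29.1% (26.7% to 33.6%) and 28.6% (25.3% to 32.9%). This rod marker share was highest, at 50.5%, in db/db cells like retinal pigment epithelium.

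The start regions of 6 of the genes are shown because the results turn on these genes: 4 were highest in rod-like cells and Thrb and Rxrg in cone-like cells. Each line gives the 250 bases before a RefSeq start site in build GRCm38.p6, read 5' to 3' on the gene's own strand. The regions are chr7:15879956-15880205 (minus strand) for Crx, chr14:55524253-55524502 (minus) for Nrl, chr9:59950080-59950329 (minus) for Nr2e3, chr3:30746043-30746292 (plus) for Samd7, chr14:17660710-17660959 (plus) for Thrb and chr1:167618015-167618264 (plus) for Rxrg. Capitals mark the matches to the searched motifs.
Crx: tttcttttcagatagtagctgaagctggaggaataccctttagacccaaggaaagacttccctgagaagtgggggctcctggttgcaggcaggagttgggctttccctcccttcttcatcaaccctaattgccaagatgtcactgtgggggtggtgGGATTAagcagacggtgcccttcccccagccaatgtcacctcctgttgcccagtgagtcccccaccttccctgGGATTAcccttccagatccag
Nrl: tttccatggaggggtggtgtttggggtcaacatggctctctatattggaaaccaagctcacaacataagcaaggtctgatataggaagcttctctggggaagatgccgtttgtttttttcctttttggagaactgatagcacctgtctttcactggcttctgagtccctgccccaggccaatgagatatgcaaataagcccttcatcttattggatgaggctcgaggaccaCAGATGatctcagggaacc
Nr2e3: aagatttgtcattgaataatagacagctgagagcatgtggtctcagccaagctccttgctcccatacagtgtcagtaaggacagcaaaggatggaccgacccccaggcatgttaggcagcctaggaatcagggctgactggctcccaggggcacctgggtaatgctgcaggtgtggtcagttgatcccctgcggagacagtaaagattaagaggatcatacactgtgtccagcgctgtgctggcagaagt
Samd7: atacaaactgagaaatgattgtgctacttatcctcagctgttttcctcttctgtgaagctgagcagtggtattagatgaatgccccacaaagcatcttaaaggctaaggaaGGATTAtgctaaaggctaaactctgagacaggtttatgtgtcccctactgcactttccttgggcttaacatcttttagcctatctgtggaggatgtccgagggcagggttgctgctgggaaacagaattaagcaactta
Thrb, upstream start: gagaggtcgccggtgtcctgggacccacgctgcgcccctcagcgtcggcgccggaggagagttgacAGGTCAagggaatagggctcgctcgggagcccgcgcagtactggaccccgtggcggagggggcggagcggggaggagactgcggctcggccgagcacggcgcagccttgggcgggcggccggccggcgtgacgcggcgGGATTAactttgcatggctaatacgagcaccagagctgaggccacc
Rxrg, downstream start: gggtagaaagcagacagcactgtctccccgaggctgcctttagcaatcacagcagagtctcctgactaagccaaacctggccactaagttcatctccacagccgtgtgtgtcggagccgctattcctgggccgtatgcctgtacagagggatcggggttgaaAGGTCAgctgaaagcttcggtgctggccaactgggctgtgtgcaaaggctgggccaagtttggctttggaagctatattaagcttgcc

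The 6 short motifs of known factor families were searched on both strands in these windows, and no matches overlapped each other. The Crx and Otx2 core TAATCC occurred at 94 and 21 bases before the Crx start, at 139 before the Samd7 start and at 46 before the Thrb start. All of these lie on the opposite strand and so read GGATTA in the lines. It was present in 4 of the 16 start regions of the 10 genes and in 6.25% of 32851 start regions of the genome. The nuclear receptor core AGGTCA occurred at 184 bases before this Thrb start and at 88 before this Rxrg start, in 2 of 16 regions and in 14.0% of all. The Neurod1 E-box CAGATG occurred at 19 bases before the Nrl start, in 2 of 16 regions and in 14.4% of all. The Nrl core TGCTGA was in 4 of 16 and 16.1% of all, in Neurod1, Mef2d, Otx2 and Rorb. The Nr2e3 core AAGTCA, in 13.1% of all and the Mef2 box, in 3.2% of all, were in none of the 16. The window of Nr2e3 held none of the 6. These are matches of letters and not measured binding.

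Otx2 and Crx, the upstream homeodomain factors, differed in where they were highest. Crx (ENSMUSG00000041578, chr7:15865947-15879968) was at 842 UMIs per 1000000 UMIs of the class (CPM; interval 829.6 to 854) in wild type rod-like cells and 904 (892 to 916) in db/db. In cone-like cells it was at 679 (644 to 716) and 712 (674 to 752), which is 0.81 and 0.79 times the rod level. The order rod above cone, with intervals apart, held in both libraries. In bipolar-like cells Crx stood at 358 and 368 CPM, 0.43 and 0.41 times the rod level. As a share of the rod level, those were 1.46 and 1.42 times the rod marker share of the same cells. Otx2 (ENSMUSG00000021848, chr14:48657677-48673819) was instead highest in bipolar-like cells, at 563 CPM (532 to 594) in wild type and 581 (545 to 619) in db/db. It followed at 382 and 408 in rod-like cells and at 275 and 251 in cone-like cells, with the bipolar and rod intervals apart in both libraries. The share of cells with an Otx2 UMI was 68.5% and 70.5% of bipolar-like cells against 51.0% and 51.0% of rod-like cells. After thinning each cell to 1000 UMIs it was 39.0% and 44.5% against 30.2% and 30.3%. Erythroid-like cells, which should lack Otx2, held a UMI in 8% and 23.3% of cells at median depths of 4699 and 9448 UMIs, against 2937 and 3039 in bipolar-like cells. Much of the erythroid-like depth was haemoglobin RNA, with the haemoglobin gene Hbb-bs alone at 460960 and 438910 CPM. Shares of erythroid-like cells are therefore not matched in depth to those of other classes. The bipolar level of Otx2 was 5.06 and 4.98 times what the rod marker share gave. In cells like retinal pigment epithelium, a tissue in which Otx2 is known to act, its level was 317 (203 to 471) and 398 (223 to 656) CPM. That was 1.69 and 1.93 times the rod markers, with lower bounds of 1.08 in both. In erythroid-like cells Otx2 was at 0.73 (0.24 to 1.70) and 1.74 (1.05 to 2.72) times the rod markers. In Muller glia-like cells it was at 1.52 (1.31 to 1.76) and 1.40 (1.14 to 1.71) times. An excess of this size was thus not particular to cells like retinal pigment epithelium. The opposite-strand transcript Otx2os1, with 2265 and 2343 UMIs, overlaps the Otx2 gene, and whether the counting used strand is not given in the sources used here.

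Nrl, Nr2e3 and Samd7, the genes of rod identity, were highest in rod-like cells. Nr2e3 (ENSMUSG00000032292, chr9:59942771-59960659) stood at 1507 CPM (1491 to 1524) in wild type rod-like cells and 1783 (1766 to 1800) in db/db. In cone-like cells it stood at 311 and 290 and in bipolar-like cells at 367 and 415. Its cone level was 0.73 and 0.66 times, and its bipolar level 0.84 and 0.81 times, what the rod marker share gave. As a share of its rod level it stood at 20.6% and 16.3% in cone-like and 24.4% and 23.3% in bipolar-like cells, under each of the 4 named rod markers. Nrl (ENSMUSG00000040632, chr14:55518978-55524981) was at 896 (883 to 908) and 937 (925 to 949) CPM in rod-like cells, 264 and 255 in cone-like cells and 278 and 303 in bipolar-like cells. Its cone level was 1.05 (0.96 to 1.14) and 1.10 (1.0 to 1.2) times the rod markers, and its bipolar level 1.07 (0.98 to 1.15) and 1.13 (1.03 to 1.23) times. Nrl thus lay within the range of the 4 named rod markers in both classes. A Nrl UMI was found in 52.9% and 51.5% of cone-like cells, at median depths of 4082 and 4049 UMIs, and also in 40% and 44.2% of erythroid-like cells, which should lack it. Samd7 (ENSMUSG00000051860, chr3:30746293-30767174) was at 809 (797 to 821) and 959 (946 to 971) CPM in rod-like cells. It was at 327 (302 to 352) and 338 (312 to 366) in cone-like cells, 1.43 and 1.43 times the rod markers. In bipolar-like cells it was at 162 and 173, 0.69 and 0.63 times the rod markers. As a share of its rod level Samd7 stood above all 4 named rod markers in cone-like cells (40.4% and 35.3%) and under all 4 in bipolar-like cells (20.1% and 18.1%).

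Thrb and Rxrg, the cone receptors, were highest in cone-like cells. Rxrg (ENSMUSG00000015843, chr1:167598384-167639623) gave 137 wild type and 177 db/db UMIs in cone-like cells, or 65.7 CPM (55.1 to 77.6) and 96.5 (82.8 to 112). Rod-like cells gave only 22 and 17 UMIs, or 1.0 and 0.70 CPM, so the cone level was 65.1 and 138 times the rod level. The bipolar-like class held 4 and 2 Rxrg UMIs, and no Rxrg UMI was found in microglia- or macrophage-like or erythroid-like cells of either library, with upper interval ends of 11.4 to 32.8 CPM. An Rxrg UMI was seen in 22.6% (19.1 to 26.4) and 29.7% (25.6 to 34.0) of cone-like cells, against 0.29% and 0.20% of rod-like cells. After thinning the shares were 5.39% and 8.35% against 0.068% and 0.11%. Thrb (ENSMUSG00000021779, chr14:17660261-18038090) was at 351 (326 to 377) and 466 (435 to 498) CPM in cone-like cells, against 142 (137 to 147) and 152 (148 to 157) in rod-like cells. That is a cone level of 2.48 and 3.06 times the rod level. In bipolar-like cells Thrb was at 64.4 and 72.6, 1.56 and 1.66 times the rod markers. Thrb was thus not at 0 in rod-like cells, where 27.4% and 27.9% of cells held a UMI at median depths of 2218 and 1942 UMIs. Erythroid-like cells held one in 4% and 6.98% of cells, but much of their depth was haemoglobin RNA. The counts come from the 3' ends of transcripts and do not tell the products of the 2 Thrb start sites apart, so the cone-specific receptor form was not measured separately.

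Neurod1, Mef2d and Rorb were spread over more classes. Neurod1 (ENSMUSG00000034701, chr2:79452521-79456751) was at 1975 (1915 to 2036) and 2020.4 (1956 to 2087) CPM in cone-like cells and at 1930.0 (1912 to 1949) and 2004 (1986 to 2022) in rod-like cells, with overlapping intervals in both libraries. In bipolar-like cells it was at 837 and 850.1, 0.43 and 0.42 times the rod level and 1.49 and 1.48 times the rod markers. The Neurod1 values are uncertain because Cerkl, with 3095 and 2919 UMIs, lies over it on the same strand. Mef2d (ENSMUSG00000001419, chr3:88142372-88172086) was highest in cone-like cells, at 388 (362 to 416) and 391 (363 to 420) CPM, against 277 and 317 in rod-like cells. In bipolar-like cells Mef2d was at 187 and 205 CPM, 2.32 and 2.26 times the rod markers. Its microglia- or macrophage-like level of 140 and 162 CPM was 2.01 (1.36 to 2.87) and 2.66 (1.92 to 3.58) times the rod markers. It was at 2.05 and 1.92 times in amacrine-like cells and 1.74 and 1.99 times in cells like retinal pigment epithelium. Rorb (ENSMUSG00000036192, chr19:18930605-19111196) was spread over the neural and glial classes. It stood at 1019.7 (1006 to 1033) and 1046 (1033 to 1059) CPM in rod-like cells, 990.5 (912 to 1074) and 916 (752 to 1105) in amacrine-like cells, 892 (840 to 946) and 941 (867 to 1020) in Muller glia-like cells and 680.4 and 737 in bipolar-like cells. The rod and amacrine intervals overlapped in both libraries. Cone-like cells had the lowest Rorb of the 5 neural and glial classes, at 472 (443 to 502) and 377 (349 to 406). Relative to the rod markers, Rorb was 4.95 and 4.22 times in amacrine-like, 3.50 and 3.28 times in Muller glia-like and 2.29 and 2.46 times in bipolar-like cells.

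**Figure D1:**
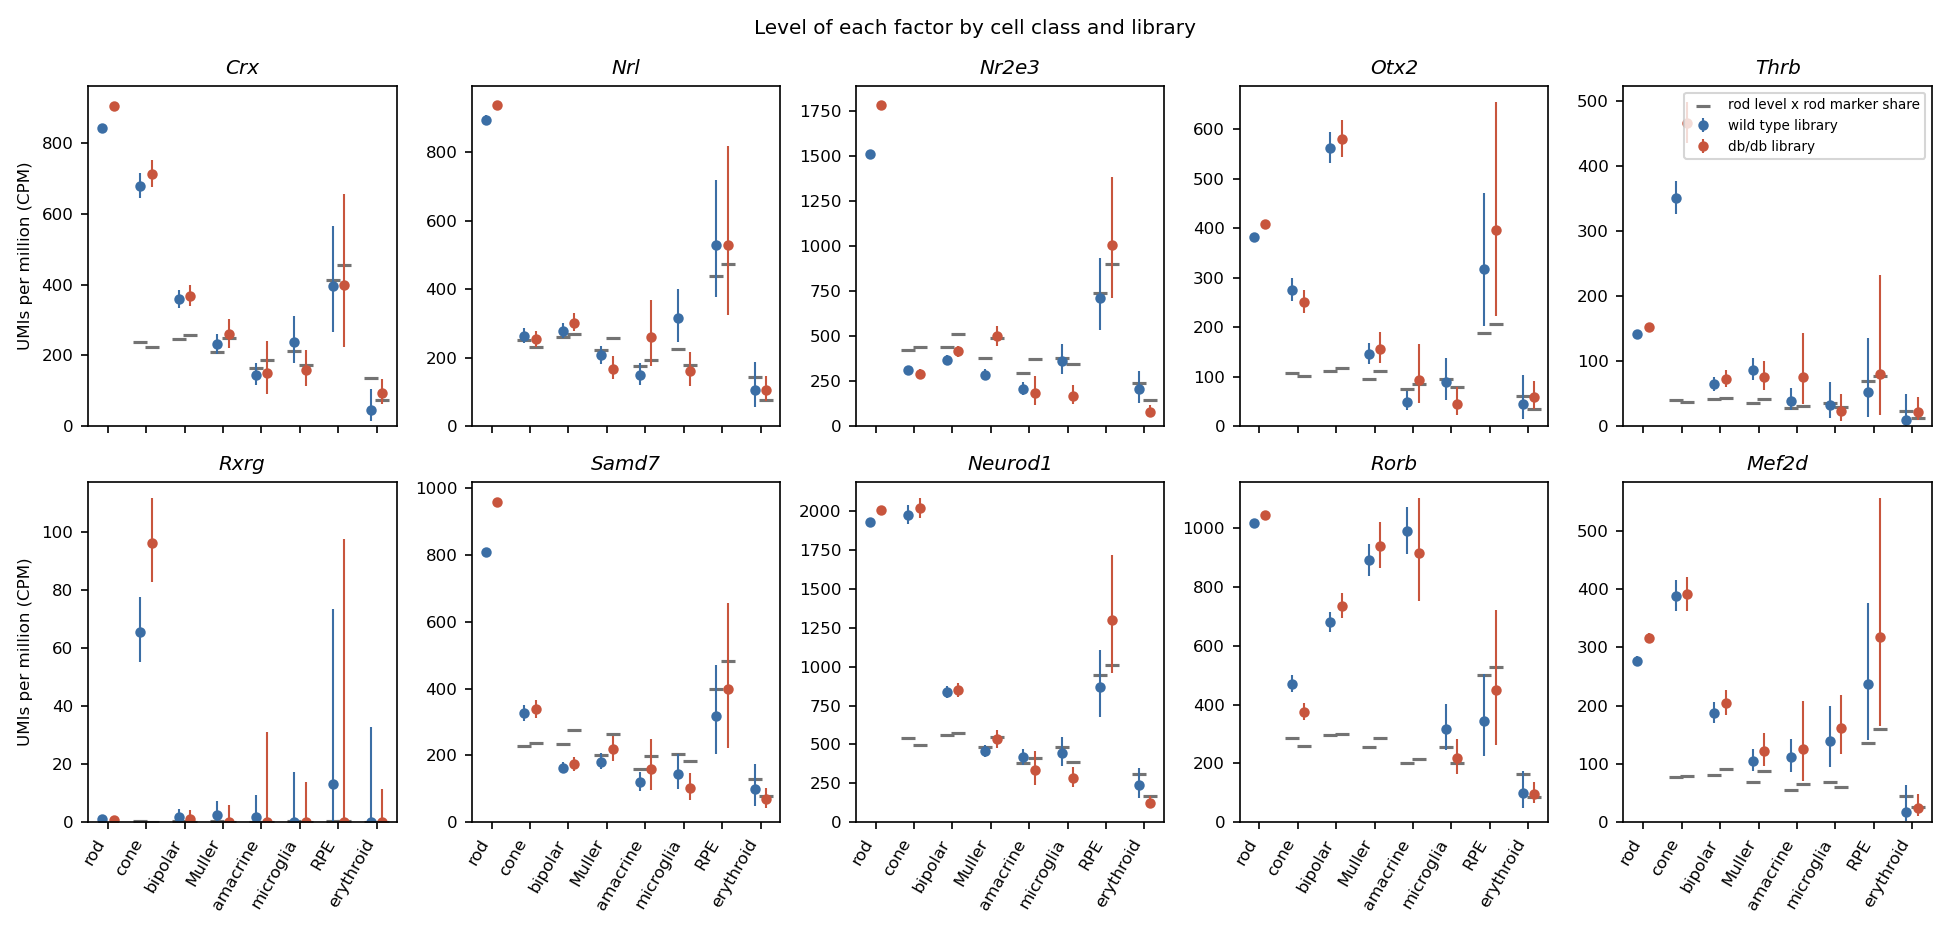
Level of each of the 10 genes (y axis, CPM) in 8 cell classes (x axis) of the wild type (blue) and db/db (red) library, with 95% counting intervals. Grey dashes mark the rod level of the gene multiplied by the rod marker share of the class: Nr2e3 lies under its dashes in cone-like and bipolar-like cells, while Otx2 in bipolar-like and Thrb and Rxrg in cone-like cells lie far above theirs. Wide bars belong to classes with few cells, such as the 45 and 16 cells like retinal pigment epithelium.

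Counts of genes at least 2 times apart in both libraries put these levels beside all genes with at least 50 UMIs in the pair of classes. Cone-like over rod-like cells, 2 of the 10 qualified (Thrb and Rxrg), where 7.43% of 11993 genes did. Under rod-like cells, 4 of 10 qualified (Nrl, Nr2e3, Samd7 and Rorb), against 7.37% of all genes. Of the 9 genes measured in bipolar-like and rod-like cells, none was over rods by this fold (15.9% of genes were) and 6 were under them (9.79%). Those 6 were Crx, Nrl, Nr2e3, Thrb, Samd7 and Neurod1. Between cone-like and bipolar-like cells, Thrb, Rxrg and Neurod1 were higher in cones (3 of 10, against 5.04%) and only Otx2 was higher in bipolar-like cells (1 of 10, against 12.8%). Under rods were also 7 of 9 genes in Muller glia-like cells (12.3% of genes), 8 of 9 in amacrine-like cells (15.9%) and 8 of 9 in microglia- or macrophage-like cells (31.8%). Rorb was the exception in amacrine-like cells, Rorb and Thrb in Muller glia-like cells, and Mef2d in microglia- or macrophage-like cells. The 50 UMIs could come from rods alone: amacrine-like cells held 23 and 9 Thrb UMIs and microglia- or macrophage-like cells 7 and 6. Clusters at 0.6 or more of the rod marker level had also been left out, which favours rod-rich genes in counts under rods. These counts are thus a description.

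Within the bipolar-like class, clusters named from markers held 149 and 98 rod bipolar-like, 52 and 42 ON cone bipolar-like and 62 and 22 OFF cone bipolar-like cells. The other 451 and 343 cells were in clusters without a subtype name. Otx2 was at 531 and 604 CPM and Neurod1 at 917 and 891 in those. The clusters named OFF also had the ON cone bipolar markers Scgn and Lhx3 up, so these names are tentative. Otx2 was at 514 (459 to 573) and 518 (450 to 592) CPM in the rod bipolar-like cells. In the ON cone bipolar-like cells it was at 807 (685 to 944) and 593 (479 to 726), and in the OFF cone bipolar-like cells at 665 (563 to 781) and 579 (423 to 775). The ON cone and rod bipolar-like intervals of Otx2 were apart in wild type, and all 3 intervals overlapped in db/db. Neurod1 was at 937 (805 to 1084) and 1014 (862 to 1184) CPM in the ON cone bipolar-like cells against 656 (554 to 771) and 476 (335 to 657) in the OFF cone bipolar-like cells, with intervals apart in both libraries.

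Rod-like cells were not uniform in these genes. They were split by their mitochondrial share of UMIs, which does not use the 10 genes, into bins of under 1%, 1 to 5%, 5 to 10% and 10 to 20%. Samd7 was lower in each successive bin, at 1148, 872, 479 and 271 CPM in wild type and 1278, 1009, 587 and 299.6 in db/db. The lowest bin stood 4.23 and 4.26 times over the highest. Neurod1 was also lower in each successive bin, from 2391 to 859 and from 2428 to 874 CPM, a 2.78-fold difference in both libraries. The ratio of the lowest to the highest bin was 2.52 and 2.76 for Otx2, 2.64 and 2.29 for Thrb, 2.02 and 1.99 for Nr2e3, 1.81 and 1.62 for Crx and 1.85 and 1.56 for Mef2d. Nrl went the other way, from 850.0 to 1064 CPM in wild type (0.80 times) and from 870.5 to 1274 in db/db (0.68 times). Rorb moved least, with ratios of 1.2 and 1.15.

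The nuclear RNA Malat1 was lower in the higher bins too, from 81389 to 15323 CPM in wild type and from 78631 to 16702 in db/db. The rod genes Gnat1, from 3682 to 8023 CPM in wild type and 3532 to 8224 in db/db, and Cnga1, from 2118 to 2940.0 and 2218 to 2839, were higher in the highest bin, like Nrl. Pde6a had ratios of 0.86 and 0.84 and Pde6b of 1.03 and 0.98. The part of these in the result was not tested. Scaling without mitochondrial and ribosomal protein genes gave 3.45 and 3.46 for Samd7 and 0.65 and 0.55 for Nrl. The ratios so scaled were 2.27 and 2.26 for Neurod1, 2.06 and 2.24 for Otx2 and 2.15 and 1.86 for Thrb. They were 1.65 and 1.61 for Nr2e3, 1.47 and 1.32 for Crx and 1.51 and 1.27 for Mef2d. This scaling turned Rorb to 0.98 and 0.93, so no direction is given for that gene. Median depth was 1722.5 UMIs in the lowest and 2420.0 in the highest wild type bin, and 1741 and 2078 in db/db.

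**Figure D2:**
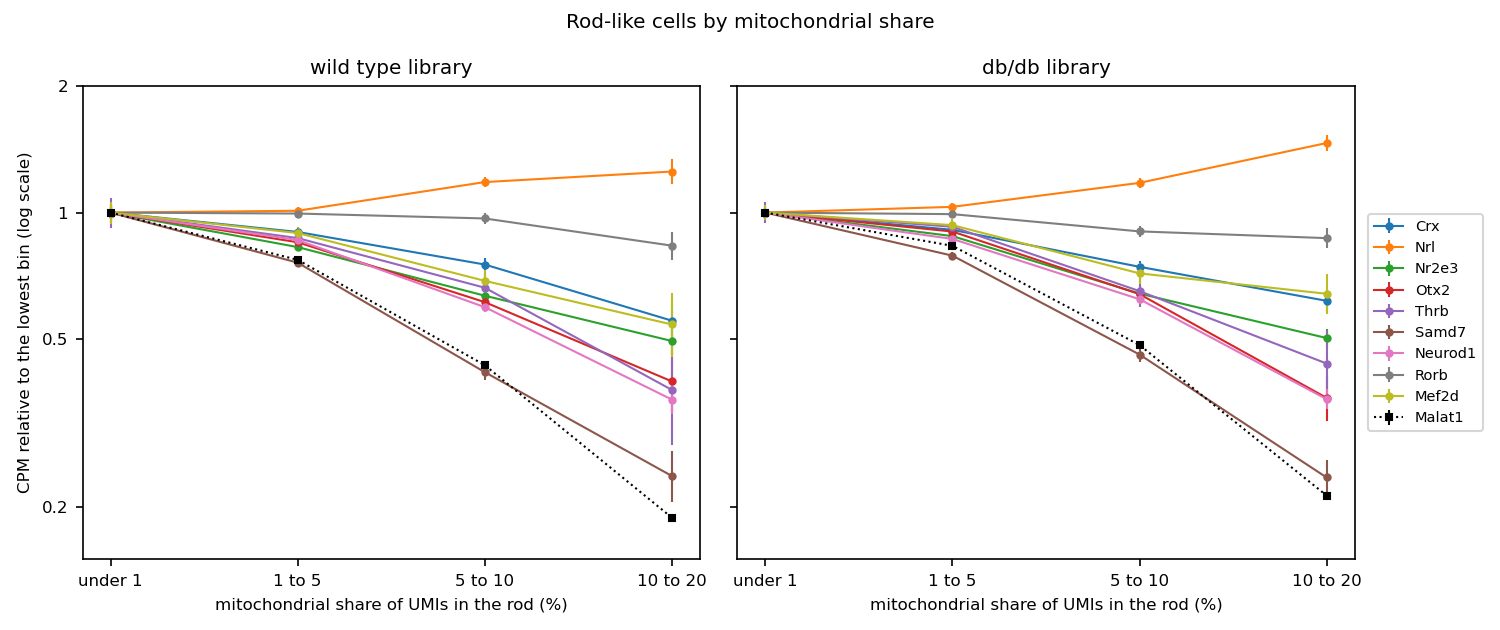
CPM of 9 of the genes, and of Malat1 for reference, in rod-like cells by mitochondrial share (x axis, %), divided by the value in the lowest bin (y axis, log scale) in each library, with 95% counting intervals. Nrl is higher in the highest bin than in the lowest, and Samd7 and Malat1 are lower, in both libraries: Samd7 stands at 1148 and 271 CPM in the lowest and highest wild type bin. Rxrg is left out because it had 22 and 17 UMIs in all rod-like cells.

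Cone-like cells differed by opsin. Mouse cones make S opsin (Opn1sw), M opsin (Opn1mw) or both, and cells with at least 5 opsin UMIs (463 of 527 and 408 of 472) were binned by the M share of those UMIs: under 10%, 10 to 50% and 50% or more. The bins held 190, 101 and 172 wild type and 146, 98 and 164 db/db cells. Thrb was at 259 (225 to 296), 322 and 460.0 (412 to 512) CPM across the bins in wild type and at 281 (240 to 327), 506 and 623 (568 to 683) in db/db. It was higher in M-rich than in S-rich cells by a log2 of 0.83 (0.58 to 1.08) and 1.15 (0.89 to 1.41). Samd7 differed in the same direction, at 205, 331 and 444 CPM and at 176, 323 and 462.5. Its log2 difference was 1.11 (0.84 to 1.39) and 1.39 (1.07 to 1.72). Otx2 was lower in M-rich cells, at 330.3, 265 and 217 CPM and at 328, 251 and 177, with log2 differences of -0.60 (-0.90 to -0.32) and -0.89 (-1.22 to -0.56).

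Rorb, which is known to act on S opsin, was also lower in M-rich cone-like cells, at 537, 454 and 389 CPM and at 403, 362 and 303. The log2 differences were -0.47 (-0.69 to -0.25) and -0.41 (-0.68 to -0.14). Rxrg was lower in M-rich cells in wild type, at 81.4 CPM against 47.2 (log2 -0.79, -1.42 to -0.17), but in db/db it was at 103 against 96.9, with an interval that includes 0 (-0.60 to 0.42). Crx, Neurod1 and Mef2d had intervals that include 0 in both libraries, and Crx stood at 663 and 670.5 CPM in the S-rich and M-rich wild type cells. Nrl and Nr2e3 were lower in M-rich cells in db/db (-0.56 and -0.81) and had intervals that include 0 in wild type. Rod RNA was itself lower in M-rich cells: the log2 difference was -0.36 in wild type and -0.42 in db/db for Gnat1, -0.23 and -0.55 for Cnga1, -0.22 and -0.45 for Pde6b and -0.15 and -0.22 for Pde6a, the last with intervals that include 0. The Rorb differences were of about this size, and over all cone-like cells 287 of the 472 wild type CPM of Rorb was the level that the rod marker share gave. The part of rod RNA in these differences was not tested.

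**Figure D3:**
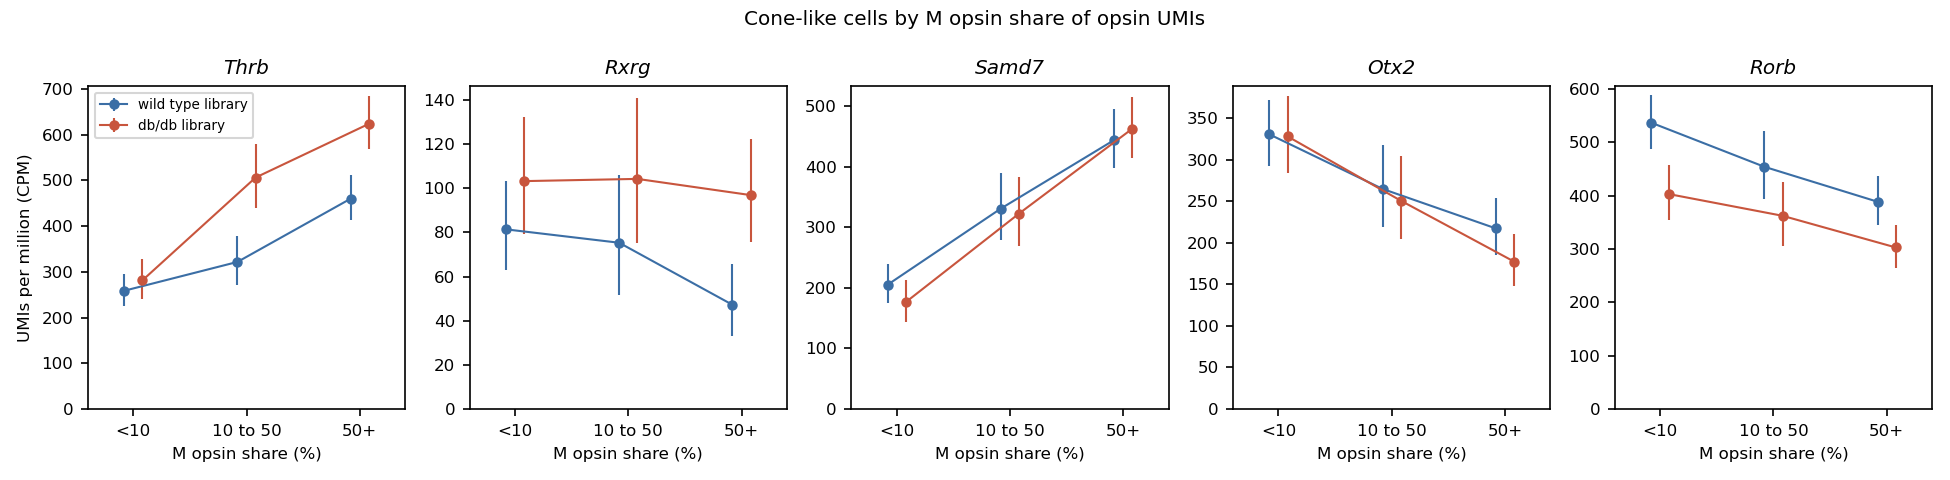
CPM (y axis) of 5 of the genes in cone-like cells with at least 5 opsin UMIs, by the M opsin share of those UMIs (x axis, %), with 95% counting intervals. Thrb and Samd7 are higher in M-rich than in S-rich cells in both libraries (444 against 205 CPM for Samd7 in wild type), and Otx2 and Rorb are lower.

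The genes most like each member were found by Pearson correlation over 16 profiles (8 classes in 2 libraries) among 10333 genes. The profiles share their library, and rod RNA enters all of them, so r is a description. Nrl was nearest to Slc24a1 (r = 0.97), a rod cation exchanger gene, then Pde6a and Gnb1, genes of rod phototransduction. Nr2e3 was nearest to Nt5e (0.98), then the rod channel and phosphodiesterase genes Cnga1 and Pde6b. Samd7 was nearest to Pdc (0.97), Prph2 and Pcmtd2, and Crx to Rpgrip1 (0.97), Glmn and Ubap1l. Rxrg was nearest to Ankrd31 (0.97), Fabp7 and Otop3, and Thrb to Dixdc1 (0.95), Hspb6 and Pde6d. The wild type level of Ankrd31, Fabp7 and Otop3 in cone-like cells was 30.7, 122 and 72.9 CPM, against 0.92, 3.58 and 0.37 in rod-like cells. Otx2 had the lowest leading r, 0.95 with Klc3, before Fyco1 and Fhod3. Neurod1 was nearest to Map1b (0.99), Tma7 and Dmd, Rorb to Phc3 (0.95), Erg28 and Msi2, and Mef2d to Bnip2 (0.99), Fam107b and Thoc2.

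Between the libraries, the 9 genes measured in rod-like cells were all slightly higher in db/db, and none reached the fold of log2 0.25 set for a call. By that rule 11.5% of 11694 genes were called higher and 8.05% lower, or 4.07% and 2.59% of the genes with at least 1000 UMIs, as all 9 had. The largest log2 differences were those of Samd7, 0.246 (0.22 to 0.27), Nr2e3, 0.242 (0.22 to 0.26), and Mef2d, 0.19 (0.14 to 0.24). Crx was at 0.10, Thrb at 0.10, Otx2 at 0.10, Nrl at 0.06, Neurod1 at 0.05 and Rorb at 0.04. The median of the 9 was 0.10 and that of all genes 0.03. Counting intervals lay above 0 for 9 of 9, where they did so for 20.1% of genes (26.1% of those with at least 1000 UMIs) and lay below 0 for 12.5% (16.3%). Samd7 and Nr2e3 stood just under the fold, and with at most 10% mitochondrial UMIs allowed per cell both passed it (0.26 and 0.26).

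The share of rod-like cells in the lowest mitochondrial bin differed between the libraries, at 15.4% in wild type and 23.9% in db/db, as did that in the highest bin, at 4.09% and 7.0%. Within the 4 bins the log2 difference of Nr2e3 was 0.17, 0.25, 0.18 and 0.19 from the lowest to the highest, each with an interval above 0. That of Samd7 was 0.15, 0.21, 0.29 and 0.14, with an interval that includes 0 in the highest bin (-0.10 to 0.39), and that of Mef2d was 0.13, 0.19, 0.18 and 0.37. Crx, Nrl, Otx2, Thrb, Neurod1 and Rorb each had an interval that includes 0 in some bin or bins. Otx2 was at -0.11 in the highest bin and Rorb at -0.04 in the bin of 5 to 10%. The rod genes used as a reference spread to both sides of 0, with Gnat1 at -0.13, Cnga1 at 0.01, Pde6b at 0.05 and Pde6a at 0.06. Malat1 was at 0.07.

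In cone-like cells, Thrb and Rxrg were higher and Rorb was lower in db/db. Thrb went from 351 to 466 CPM (732 and 855 UMIs; log2 0.41, 0.26 to 0.55) and Rxrg from 65.7 to 96.5 (log2 0.55, 0.22 to 0.89). Rorb went from 472 to 377 CPM (984 and 691 UMIs; log2 -0.33, -0.47 to -0.18). By the log2 0.25 rule, 2 of 10 were called higher, where 15.8% of 7940 genes were, and 1 of 10 lower, where 13.7% were. Among genes with at least 1000 UMIs, which include Thrb and Rorb but not Rxrg, only 2.08% were called higher and 2.4% lower. Counting intervals lay above 0 for these 2 and below 0 for Rorb, where they did so for 5.0% and 4.42% of genes, or 11.9% and 16.3% of those with at least 1000 UMIs. For the other 7 the interval includes 0, with values from -0.13 (Otx2) to 0.07 (Crx), and the median of the 10 was 0.02 against 0.01 for all genes.

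These values were also taken in subsets of the cone-like cells, whose differences from each other were not tested. In the larger of the 2 cone clusters that were kept, the rod marker level was 0.21 of that of rods. There Thrb was at 0.42, Rxrg at 0.59 and Rorb at -0.46. In the other (193 and 162 cells, rod marker level 0.56 of rods), Thrb was at 0.27 (-0.16 to 0.70), Rxrg at -0.02 and Rorb at 0.13, all with intervals that include 0. Within the opsin bins from S-rich to M-rich, Thrb was at 0.12 (-0.18 to 0.42), 0.65 and 0.44, and Rxrg at 0.34, 0.47 and 1.04, the last with an interval above 0 (0.43 to 1.66). Rorb was at -0.41, -0.33 and -0.36, each with an interval below 0. Some of the other 7 also had intervals off 0 in a subset: Nr2e3 at -0.53 (-0.85 to -0.21) in M-rich cells, Nrl at -0.39 in the middle and -0.34 in the M-rich bin, Neurod1 at 0.28 (0.06 to 0.49) in the smaller cluster and Otx2 at -0.24 in the larger. Rod RNA was lower in db/db cone-like cells (24.8% against 28.2% of the rod level), and its part was not tested. With free RNA subtracted Rorb was at -0.35, Thrb at 0.33 and Rxrg at 0.42. Rorb no longer reached the fold under 4 of 13 alternatives, and was at -0.14 where the 10 genes were allowed into the clustering and at -0.19 without the cells of highest doublet score.

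**Figure D4:**
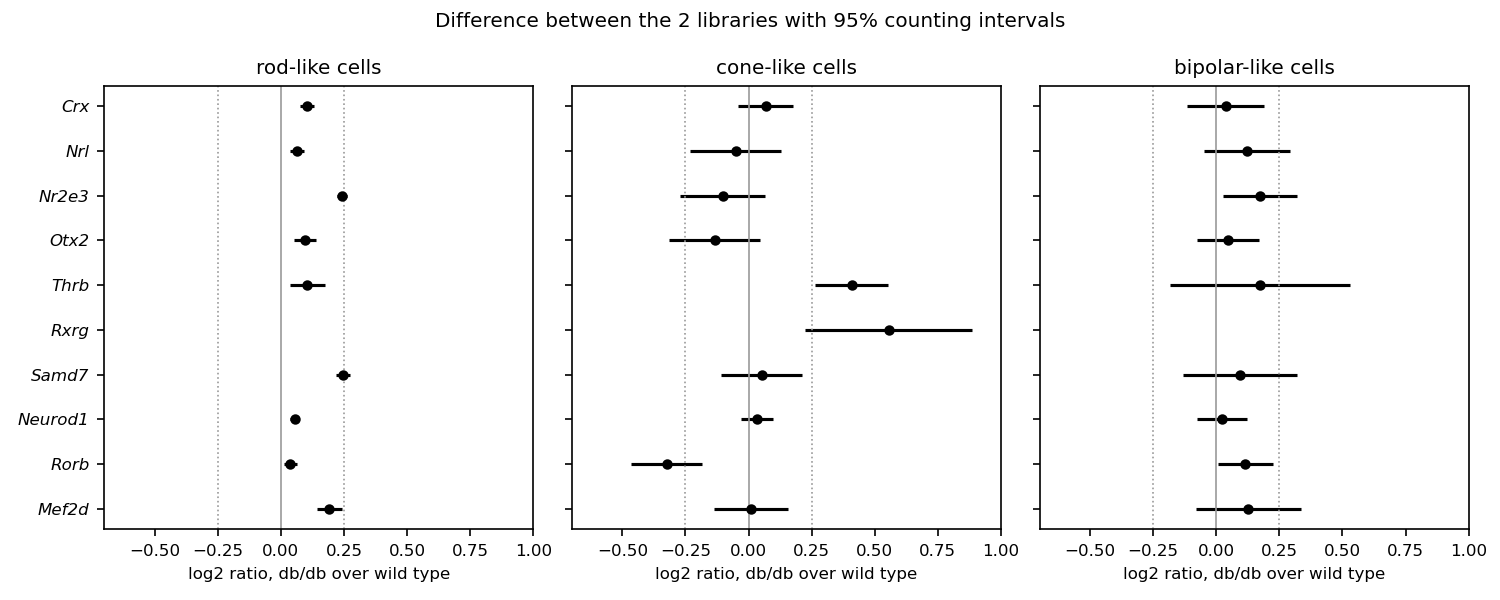
Log2 ratio of db/db over wild type (x axis) for the 10 genes in rod-like, cone-like and bipolar-like cells, as points with 95% counting intervals. Dotted lines mark log2 0.25 in each direction. All 9 rod-like points lie between 0 and 0.25, and in cone-like cells Thrb and Rxrg lie to the right and Rorb to the left of the dotted lines.

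In bipolar-like cells the 9 measured genes ranged from 0.02 (Neurod1) to 0.18 (Nr2e3), and none passed the fold, which 15.4% of 8811 genes did upward and 16.8% downward. Nr2e3, 0.18 (0.03 to 0.32), and Rorb, 0.11 (0.01 to 0.22), had intervals above 0, as did 5.25% of genes, and none of the 9 had one below 0 (6.07% of genes). Otx2, the gene with its highest level in this class, was at 0.05 (-0.07 to 0.17). The 5 cells with most Nr2e3 held 17.2% and 18.6% of its bipolar-like UMIs.

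In Muller glia-like cells Nr2e3 was at 286 CPM in wild type and 498 in db/db (348 and 311 UMIs; log2 0.80, 0.58 to 1.03). Of the db/db UMIs, 48.6% came from 5 cells, against 29.3% in wild type, and thinned to 1000 UMIs per cell the value was -0.19. Neurod1 was the other gene with an interval above 0, at 0.22 (0.02 to 0.42), so 2 of 9 had one, where 5.99% of genes did, and none had one below 0 (5.2%). The level of Nr2e3 in these cells was 0.76 and 1.02 times what the rod marker share gave. In microglia- or macrophage-like cells Nr2e3 was at -1.10, Nrl at -0.97, Neurod1 at -0.64 and Rorb at -0.54. These 4 of 7 measured genes had intervals below 0, where 11.0% of genes did, and none lay above (10.1%). Rod marker RNA was also lower in the db/db cells of that class (19.2% against 25.1% of the rod level), and its part was not tested.

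Other genes of the pathway were taken from 4 lists and are given for rod-like cells, db/db over wild type. Of 30 genes that the rod factors are known to activate, all were measured (at least 50 UMIs), 10 had intervals above and 15 below 0, and the median was -0.03. Over all genes in rod-like cells the shares were 20.1% above and 12.5% below, or 26.1% and 16.3% of genes with at least 1000 UMIs. Among the furthest from 0 were Pde6g (-0.26), the inhibitory subunit of the rod phosphodiesterase, Rcvrn (-0.23), encoding recoverin, and Susd3 (0.18). In cone-like cells 19 of these 30 had intervals below 0 and none above, with a median of -0.16, where 4.42% of all genes lay below and 5.0% above (16.3% and 11.9% of those with at least 1000 UMIs). The rod marker share of these cells was also lower in db/db (24.8% against 28.2%), and its part was not tested. Of 16 genes of the cone program 14 were measured in rod-like cells, with a median of -0.13, 1 interval above and 5 below 0, beside 20.1% and 12.5% of all genes. Among those with an interval off 0, the 4 furthest were Slc24a2 (-0.60, from 60 and 44 UMIs), Arr3 (-0.46), Pde6c (-0.33) and Gnb3 (-0.21). In cone-like cells 15 were measured and their median was 0.01. The cone list shares with the rod list a gene that was higher in rod-like than in cone-like cells in both libraries.

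Of 28 transcription factors of bipolar and inner retinal cells, 16 were measured in rod-like cells, with 1 interval above 0 (Rax, 0.18) and 1 below (Neurod4, -0.61, from 111 and 81 UMIs). Over all genes these shares were 20.1% and 12.5%. Their median was -0.32, with 10 of the 16 lower by at least log2 0.25 and 0 higher, where 8.05% and 11.5% of all genes were. Those shares are not matched for level, and many of the listed factors were at few CPM in rod-like cells, such as Neurod4 at 5.09 and 3.34. Rax differed, at 117 and 132 CPM in rod-like against 42.0 and 40.7 in bipolar-like cells. The estimated share of free RNA was also lower in db/db (22.1% of UMIs against 29.9%), and its part was not tested. Of 41 partners and relatives of the 10 genes, 35 were measured, 14 had intervals above and 3 below 0 (20.1% and 12.5% of all genes), and the median was 0.07. Among those with an interval off 0, the 4 furthest from 0 were Prdm1 (0.37), a repressor that favours photoreceptor over bipolar fate, Rxra (0.37), a retinoid X receptor gene related to Rxrg, Atxn7 (0.25), a subunit of the SAGA complex, and Phc2 (0.21), a Polycomb protein gene. The median of all 11694 genes was 0.03.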

How the data were processed

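Single-cell 3' RNA libraries were made from dissociated retinas, 1 per genotype. The authors deposited filtered matrices of raw UMI counts per gene and barcode, made with Cell Ranger 6.0.1 per the file headers and on mm10 per the submitters' processing notes. The sources used here state neither the annotation release nor the settings for cell calling and strand. The wild type library held 35642274 UMIs and the db/db library 33742189.

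Cells with under 200 genes (1 and 7) or over 20% mitochondrial UMIs (77 and 113) were removed. Scrublet called 0 and 2 doublets, so it did not work here, and its 8% highest scores were removed only as an alternative. Counts were scaled to 10000 per cell, and scanpy 1.11.5 clustered them (2000 variable genes without the 10 described, 40 components, 15 neighbours, Leiden resolution 1.0). Non-rod clusters were clustered again. A cluster was named from at least 3 markers. The second round and the limit of 0.6 of the rod marker level were chosen after seeing the data. Class sums gave CPM with exact Poisson intervals, shares of cells with Clopper-Pearson intervals, and ratios with conditional binomial intervals. Genes with at least 50 UMIs over both libraries counted as measured. Interval coverage was tested only on data simulated with counting error alone. Such data cannot show how well the intervals cover spread between cells. UMIs from the same library share its preparation, so intervals cover counting error only.

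The 10 genes and all lists were chosen with earlier results of these data known. Named are all 10 genes, the 3 genes most like each (log2(CPM + 1), at least 200 UMIs) and up to 4 genes per list; 1 gene is not reported here. Gene positions are from the GENCODE annotation of GRCm38, the same assembly as mm10. No test was run. There were 13 alternatives.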

Additional observations from a re-analysis of the deposited data

Results flagged for a closer look

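For 4 genes, the db/db over wild type log2 ratios had counting intervals on opposite sides of 0 in different cell classes. The differences between classes were not tested, since there is 1 library per genotype. Nrl was at 0.06 in rod-like and -0.97 in microglia- or macrophage-like cells. Nr2e3 was at 0.24 in rod-like, 0.18 in bipolar-like and 0.80 in Muller glia-like cells and at -1.10 in microglia- or macrophage-like cells. Its Muller glia-like value was -0.19 after thinning to 1000 UMIs per cell. Neurod1 was at 0.05 in rod-like and 0.22 in Muller glia-like cells and at -0.64 in microglia- or macrophage-like cells. Rorb was at 0.04 in rod-like and 0.11 in bipolar-like cells, and at -0.33 in cone-like and -0.54 in microglia- or macrophage-like cells. In microglia- or macrophage-like cells, the 5 cells with most of each of these 4 genes held from 41.9% (Nrl, db/db) to 67.1% (Neurod1, db/db) of its UMIs. The microglia- or macrophage-like cells had median depths of 1968 and 4342.5 UMIs and rod marker shares of 25.1% and 19.2%. The part of depth and rod RNA was not tested.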

How the results depend on the processing

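The median log2 ratio of the genes kept its sign in rod-like cells under all 13 alternatives, and each of the 9 rod-like ratios stayed above 0. In cone-like cells Thrb ranged from 0.28 to 0.47, Rxrg from 0.42 to 0.77 and Rorb from -0.46 to -0.14. The value of -0.46 is that at a rod mixture limit of 0.5, an alternative chosen after seeing the data.

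The number of genes past log2 0.25 is given for the settings that moved it by over 1.5 times. In rod-like cells, with 0 otherwise, it was 2 higher at most 10% mitochondrial UMIs, 1 at clustering resolution 2.0 and 1 with equal weight per cell. In cone-like cells, with 1 lower otherwise, it was 0 lower without the 8% of cells of highest doublet score, with the genes allowed into the clustering, with classes gated per cell and with equal weight per cell, and 3 in place of 2 were higher without those 8% of cells and with free RNA subtracted. In bipolar-like cells, with 0 otherwise, it was 2 higher without those 8% of cells, 4 higher with free RNA subtracted and 1 lower after thinning to 1000 UMIs. The bipolar median moved from 0.11 to 0.33 with free RNA subtracted. In Muller glia-like cells, with 2 higher and 1 lower otherwise, it was 0 lower without a mitochondrial filter and with gated classes, 4 higher and 0 lower without the 8% of cells, 0 higher and 4 lower after thinning, and 1 higher and 3 lower with equal weight. Their median moved from 0.17 to -0.23 after thinning and to 0.85 with free RNA subtracted, where 3 were higher and Crx reached 4.15. In microglia- or macrophage-like cells, with 0 higher otherwise, it was 1 higher at most 10% mitochondrial UMIs, without that filter, with the genes allowed into the clustering, with gated classes and with equal weight.

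Of single ratios of at least log2 0.25 in size 3 changed sign, all in Muller glia-like cells: Nrl to 0.081 with gated classes, and Nr2e3 to -0.19 and Samd7 to -0.46 after thinning. Smaller ratios changed sign more often, such as Neurod1 in bipolar-like cells under 8 alternatives and Crx there under 7, Nrl in cone-like cells (up to 0.78) and Mef2d in Muller glia-like cells (down to -0.76). The cause was not tested. Free RNA was estimated at 29.9% and 22.1% of UMIs. Microglia- or macrophage-like cells gave no value with free RNA subtracted or at a minimum of 200 UMIs.

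No paired analysis was possible because each genotype has 1 library and the result comes from no test. Outside cone-like cells Rxrg gave few UMIs, 22 and 17 in rod-like cells, which limits its ratios between libraries there. The 28 db/db amacrine-like cells were too few for a ratio.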
